A study of Mus musculus with 12 samples.

Results

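RNA from the subventricular zone of male mice was compared at 22 months, the oldest age of the study, and at 2 months, the youngest. The comparison takes the 3 libraries of each of these ages, 6 of the 12 libraries of a study that also sampled 6 and 18 months. It covers 15663 of the 23725 genes in the table, those that reached 10 normalised counts in 3 or more of the 12 libraries. The mice of both ages were wild type and untreated as far as the labels say. The strain is given as C57BL/6 for the 2-month samples and is not given for the others. The subventricular zone was dissected out and its cells were dissociated before RNA was isolated with Trizol, so each library is a bulk mixture of all cells that the dissection held. Whether the 3 libraries at each age stem from different mice is not stated, so the p-values speak only to the spread among these libraries, which may be technical.

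The subventricular zone lines the lateral ventricle of the brain next to the striatum and is a site where neurons are still made in the adult mouse. Quiescent stem cells that share many transcripts with astrocytes give rise to activated stem cells and fast-dividing progenitors, and these produce neuroblasts that migrate to the olfactory bulb, while ependymal cells, microglia, oligodendrocytes and vessels make up the surrounding niche. Production of neurons is known to decline with age in this tissue, and microglia and interferon signals of the aged brain have been described. The comparison asks which transcripts differ across the whole age span.

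A normalised count is the number of reads on a gene after the authors' scaling by library size factors. Fold changes are 22 months over 2 months on the scale of log2 of the normalised count plus 1, from a limma fit of all 12 libraries, given with standard errors (n = 3 libraries at each age). A gene passed at a two-sided Benjamini-Hochberg adjusted p under 0.05 over all tested genes. Recovered reads per library ran from 6381390 to 8992891 at 22 months and from 7732316 to 10112100 at 2 months. The limit that a count of 0 allows, 3 reads, was worth 3.11 to 4.41 normalised counts at 22 months and 2.75 to 3.57 at 2 months. Defining markers of the tissue were present at both ages. Gfap of astrocytes and stem cells, Dcx of neuroblasts and Foxj1 of ependymal cells were detected in all 6 libraries, with Foxj1 at 391 as the lowest of these values. Markers of striatal projection neurons were abundant, with sums over the list of 174325, 177558 and 172333 at 22 months and 158574, 165494 and 163372 at 2 months. The choroid plexus transcript Ttr ranged from 569 to 1544 at 22 months and from 942 to 1655 at 2 months. The lymphocyte marker Cd3e had at most 2.61 normalised counts at 22 months and at most 2.75 at 2 months, at or under the limit set by a count of 0.

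2 features of the 22-month libraries touch the results and are given first. Transcript length separated all 3 of them from the 2-month libraries. The share of reads on genes with a longest transcript under 1500 nt was 7.10%, 7.18% and 7.19% at 22 months, against 5.71%, 5.56% and 5.91% at 2 months. The share on genes over 6000 nt was 20.9%, 20.5% and 20.4% at 22 months, against 25.03%, 25.5% and 24.3% at 2 months. Of genes under 1000 nt, 48.0% were higher at 22 months and 1.38% lower, with a median log2 fold change of 0.34, and of genes of at least 8000 nt, 2.24% were higher and 73.3% lower, with a median of -0.40. At 18 against 6 months, in the other 6 libraries of the same fit, the medians of the same length classes lay between -0.01 and 0.02. Counts are therefore also given after removing from each library the trend of its counts over length and GC content. The genes in such a count are not always those that passed before. Replicate 1 at 22 months also stood apart from the other two of its age in interferon-stimulated and immediate early genes. It did so to a lesser degree in MHC class I, microglia and oligodendrocyte genes. Its values are given where they bear on a result.

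**Figure D1:**
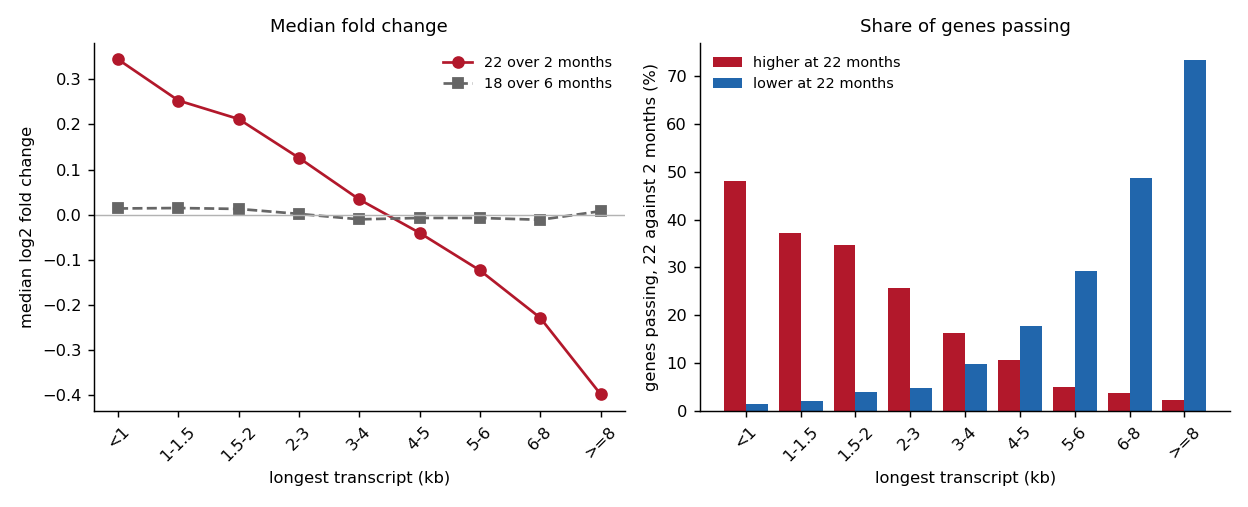
Median log2 fold change (left, unitless) and percentage of genes passing (right) in classes of the longest annotated transcript in kb. At 22 over 2 months the median falls from class to class, to -0.40 in the longest class against 0.34 in the shortest, while at 18 over 6 months it stays between -0.01 and 0.02; bars show the share of genes higher (red) and lower (blue) at 22 months.

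Many transcripts of complement, MHC class I, interferon-stimulated genes and microglia were higher at 22 months, and many of dividing cells, progenitors, neuroblasts and myelin were lower. With limma, 5584 of 15663 genes passed (35.7%), 2889 of them higher (18.4%) and 2695 lower (17.2%). For 46.4% of the tested genes (7271) the libraries of the 2 ages did not overlap. Most changes were small, with a median absolute log2 fold change of 0.39 among the passing genes. At least a 1.5-fold change was met by 590 higher and 774 lower genes, a 2-fold change by 217 and 267, and a 4-fold change by 31 and 25. Removing the length and GC trend left 1943 genes higher (12.4%) and 1554 lower (9.92%), and 2576 of the 5584 passed in the same direction, while 54 passed in the opposite one. The higher genes had a median longest transcript of 2293.5 nt and the lower genes one of 5952 nt, against 3422 nt over all tested genes.

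**Figure D2:**
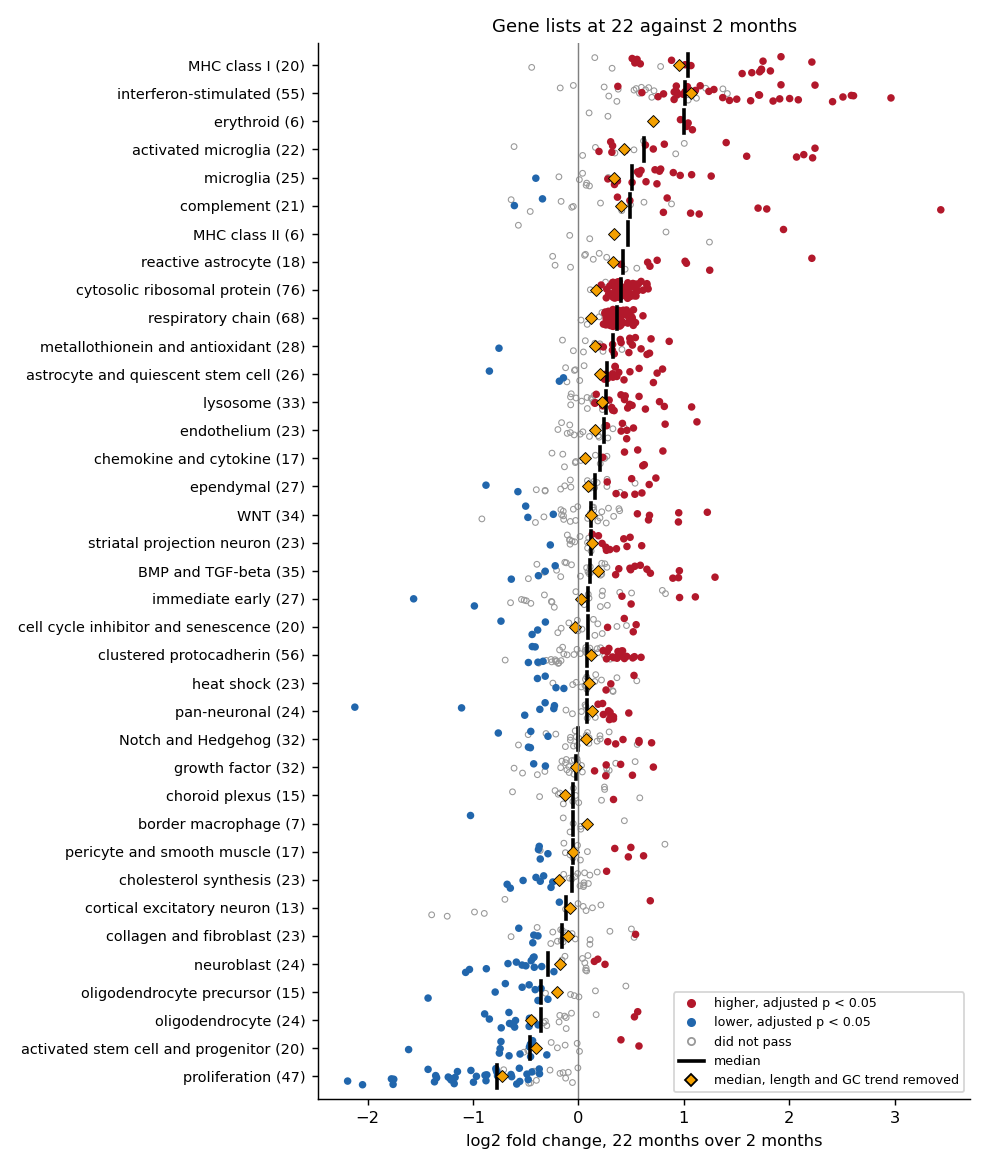
Log2 fold changes at 22 over 2 months (x axis) of the tested members of each gene list (y axis, number tested in brackets), one point per gene. Red and blue points passed as higher and lower, open points did not pass, black bars are medians and diamonds are medians with the length and GC trend removed; the medians run from 1.04 for MHC class I to -0.77 for proliferation.

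Cell division was the programme with the lowest median fold change of all lists. Of the proliferation list, 0 of 47 tested members were higher, 35 lower and 12 did not pass (median log2 fold change -0.77), where all tested genes had a median of 0.02. Mki67 (id17345, chromosome 7, 135689784 to 135716450), which coats the chromosomes of dividing cells, had 237, 149.8 and 196 normalised counts at 22 months, against 768, 835 and 776 at 2 months. All 22-month libraries were far below the lowest 2-month library (log2 fold change -2.05 ± 0.20, adjusted p = 3.78e-06). Top2a, the topoisomerase of dividing cells, had 141, 88.1 and 115 normalised counts at 22 months, against 392, 414 and 346 at 2 months, again without overlap (log2 fold change -1.76 ± 0.14, adjusted p = 7.02e-07). Bub1, a kinase of the spindle checkpoint, had 9.13, 2.94 and 13.5 normalised counts at 22 months, against 36.8, 38.5 and 35.6 at 2 months, with replicate 2 at 22 months under the limit set by a count of 0 (log2 fold change -2.19 ± 0.36, adjusted p = 0.000272). The kinetochore motor Cenpe had 22.2, 29.4 and 20.7 normalised counts at 22 months, against 83.2, 87.1 and 77.6 at 2 months (log2 fold change -1.75 ± 0.17, adjusted p = 3.72e-06).

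Ccnd2, a cyclin of the G1 phase, had 915, 851 and 889 normalised counts at 22 months, against 1800.5, 1785 and 1708 at 2 months, values that were tight within each age and did not overlap (log2 fold change -0.995 ± 0.08, adjusted p = 4.34e-07). Members that did not pass, chosen after their values were seen, included the replication factors Pcna, Mcm5 and Mcm7, with log2 fold changes of -0.10, -0.17 and -0.15, and the cyclin Ccnd1, with -0.06. The proliferation list had 0 higher and 38 lower, median -0.73 after removal of the length and GC trend, and 34 of the 35 genes were lower in both. In bulk tissue, fewer cells of a type and less RNA per cell cannot be told apart, here and for every marker list that follows.

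Markers of activated stem cells and progenitors moved with the dividing cells. Of this list, 2 of 20 tested members were higher, 11 lower and 7 did not pass (median log2 fold change -0.45). Tnc, a matrix glycoprotein of the stem cell niche, had 31.3, 26.4 and 26.9 normalised counts at 22 months, against 86.8, 74.3 and 106 at 2 months (log2 fold change -1.61 ± 0.18, adjusted p = 1.42e-05). The nuclear lamin Lmnb1 had 160.4, 129 and 165 normalised counts at 22 months, against 269, 242 and 244 at 2 months (log2 fold change -0.73 ± 0.10, adjusted p = 8.2e-05). The transcription factor Sox4 had 227, 231 and 261 normalised counts at 22 months, against 439.7, 379.6 and 385 at 2 months (log2 fold change -0.74 ± 0.13, adjusted p = 0.000345). The ages did not overlap for any of these genes. Egfr, the receptor of epidermal growth factor that marks activated cells, had 177, 137 and 130.5 normalised counts at 22 months, against 208, 222 and 177 at 2 months. The highest library at 22 months, with 177.3, lay just above the lowest at 2 months, with 176.7. Egfr passed (log2 fold change -0.45 ± 0.14, adjusted p = 0.016) but not with the length and GC trend removed (log2 fold change -0.01, adjusted p = 0.958). Its longest transcript has 10208 nt, and it passed in 2 of the 6 fits without 1 library. Vim, an intermediate filament protein of progenitors and also of astrocytes and ependymal cells, went the other way, with 814, 861 and 1029 normalised counts at 22 months, against 683, 702 and 648 at 2 months (log2 fold change 0.40 ± 0.08, adjusted p = 0.000864). The list had 1 higher and 11 lower, median -0.41 with the trend removed, and 8 of the 11 lower genes were lower in both fits.

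Among neuroblast markers more genes were lower than higher. Of the list, 3 of 24 tested members were higher, 13 lower and 8 did not pass (median log2 fold change -0.29). Dcx (id13193, chromosome X, 143855842 to 143933396), the microtubule protein of migrating neuroblasts, had 639, 463 and 533 normalised counts at 22 months, against 1189.6, 1079 and 1138 at 2 months. The highest 22-month library lay well below the lowest 2-month library (log2 fold change -1.07 ± 0.13, adjusted p = 2.7e-05). Dlx6as1, a noncoding transcript of the Dlx5 and Dlx6 locus of interneuron precursors, had 374, 325 and 347 normalised counts at 22 months, against 726, 778 and 642 at 2 months (log2 fold change -1.03 ± 0.11, adjusted p = 8.41e-06). Sox11, a transcription factor of young neurons, had 352, 354 and 374 normalised counts at 22 months, against 645, 634 and 703 at 2 months (log2 fold change -0.87 ± 0.09, adjusted p = 9.35e-06). The synaptic adhesion gene Nrxn3, which mature neurons also express, had 2036, 1886 and 1794 normalised counts at 22 months, against 2692, 2732 and 2639 at 2 months (log2 fold change -0.50 ± 0.06, adjusted p = 2.31e-05). Dcx, Sox11 and Nrxn3 have longest transcripts of 9074, 8311 and 7922 nt. After removal of the length and GC trend their log2 fold changes were -0.63, -0.53 and -0.18, and they passed (adjusted p = 0.000201, 0.00101 and 0.0156). The whole list then had 4 higher and 12 lower, median -0.17, and 10 of the 13 lower genes were lower in both fits.

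**Figure D3:**
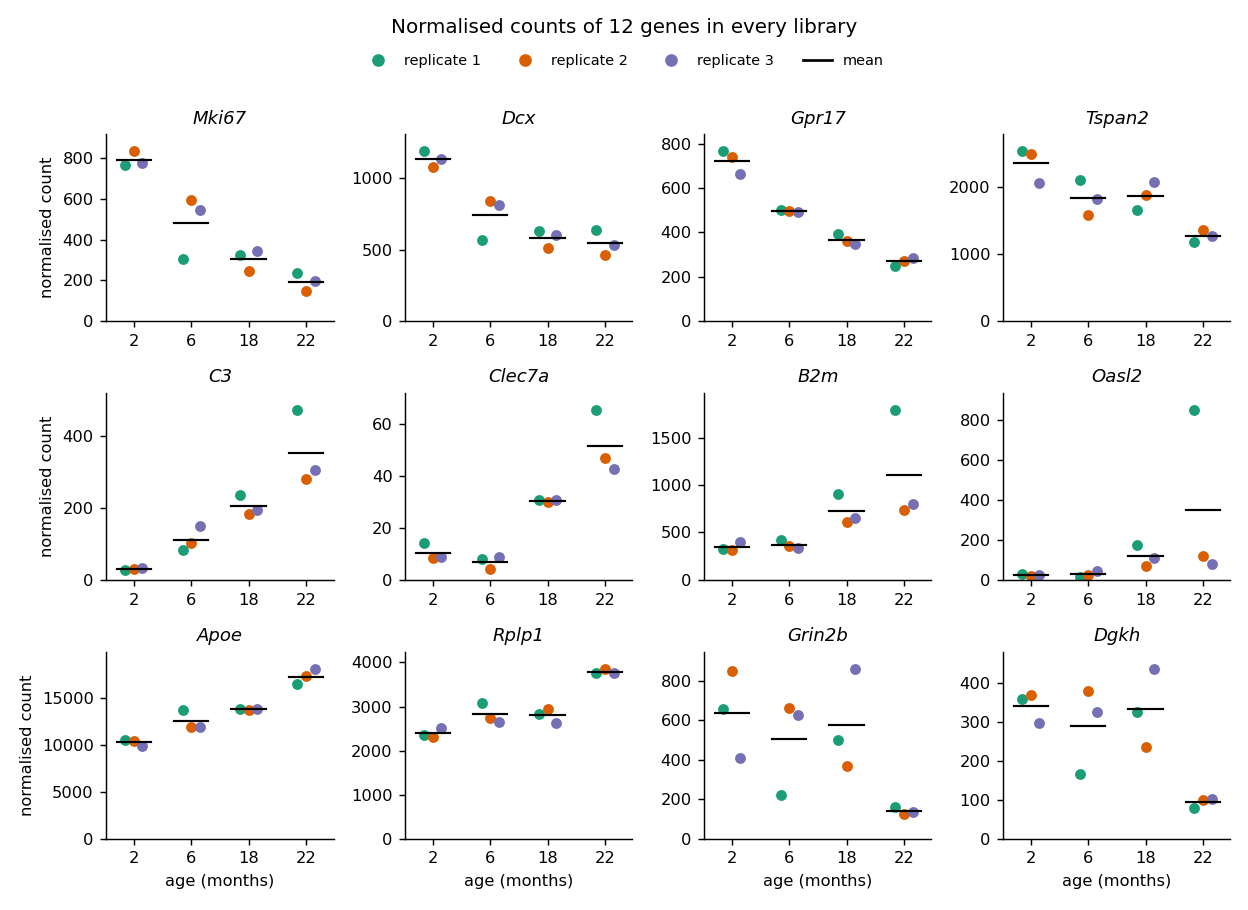
Normalised counts (y axes, from 0) of 12 genes in each of the 12 libraries by age in months (x axes), coloured by replicate number, with the mean of each age as a line. Mki67, Dcx and Gpr17 are lower at 22 than at 2 months and intermediate between them, while Grin2b and Dgkh, with long transcripts, have means at 6 and 18 months closer to the 2-month mean than to the low 22-month mean; Oasl2 and B2m are highest in replicate 1 at 22 months.

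Transcripts of the astrocyte and quiescent stem cell list were mostly higher. Of the list, 17 of 26 tested members were higher, 3 lower and 6 did not pass (median log2 fold change 0.27). Apoe (id11816, chromosome 7, 19696244 to 19701310), the lipid carrier of astrocytes and activated microglia, had 16466, 17306 and 18072 normalised counts at 22 months, against 10552, 10392 and 9928 at 2 months. The libraries of each age lay close together and the ages did not overlap (log2 fold change 0.75 ± 0.06, adjusted p = 4.17e-07). Gfap, the astrocyte filament protein, had 2431, 3297 and 2773 normalised counts at 22 months, against 1861, 1855 and 1464 at 2 months (log2 fold change 0.71 ± 0.13, adjusted p = 0.000755). Hopx, a homeodomain protein of quiescent stem cells, had 138, 191 and 173 normalised counts at 22 months, against 95.1, 90.8 and 99.1 at 2 months (log2 fold change 0.80 ± 0.12, adjusted p = 0.000105). Aldoc, a glycolytic enzyme of astrocytes, had 6170.4, 6774 and 6695 normalised counts at 22 months, against 4781, 4941 and 4812 at 2 months (log2 fold change 0.43 ± 0.06, adjusted p = 7.13e-05). Thbs4, a thrombospondin of subventricular zone astrocytes, was the clearest exception. It had 215, 276 and 227 normalised counts at 22 months, against 384, 479.6 and 426 at 2 months, lower in all 3 libraries (log2 fold change -0.84 ± 0.10, adjusted p = 2.68e-05). The list had 15 higher and 1 lower, median 0.21 with the trend removed, and Thbs4 was the lower member (log2 fold change -0.94). In both fits 12 of the 17 higher genes were higher.

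Genes of reactive astrocytes were higher in part. Of this list, 8 of 18 tested members were higher, 0 lower and 10 did not pass (median log2 fold change 0.42), and the same count held with the trend removed. Serpina3n, a secreted protease inhibitor of reactive glia, had 109.5, 142 and 134 normalised counts at 22 months, against 60.6, 64.2 and 38.8 at 2 months (log2 fold change 1.25 ± 0.20, adjusted p = 0.000231). The glycosyltransferase Ggta1 had 158, 157 and 166 normalised counts at 22 months, against 111, 99.95 and 93.8 at 2 months (log2 fold change 0.66 ± 0.11, adjusted p = 0.000218). The list also holds Psmb8 and Gbp2, which are induced by interferon. 8 of its 26 genes, Lcn2 and Timp1 among them, were below the filter on low values.

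Of the ependymal list, 8 of 27 tested members were higher, 2 lower and 17 did not pass (median log2 fold change 0.15), and 29.6% were thus higher, against 18.4% of all tested genes. The number higher was 5 without replicate 3 at 22 months, and also without replicate 1 or 2 at 2 months. Foxj1, the transcription factor of motile cilia, had 533, 522 and 603 normalised counts at 22 months, against 422, 391 and 409.5 at 2 months (log2 fold change 0.44 ± 0.09, adjusted p = 0.00161). Rarres2 had 507, 545 and 507 normalised counts at 22 months, against 395, 363 and 320.1 at 2 months (log2 fold change 0.54 ± 0.08, adjusted p = 0.000166). The lipid transfer protein Pltp had 958, 1189.9 and 1216 normalised counts at 22 months, against 748, 783 and 827 at 2 months (log2 fold change 0.51 ± 0.08, adjusted p = 0.000155). The ages did not overlap for these genes. Wdr52, a cilium gene with a longest transcript of 6583 nt, had 167, 163 and 152 normalised counts at 22 months, against 336, 297 and 259 at 2 months (log2 fold change -0.88 ± 0.16, adjusted p = 0.000694). The list had 3 higher and 1 lower, median 0.09 with the trend removed, where the 11.1% that were higher lay near the 12.4% of all tested genes, and the 3 first named genes passed as higher and Wdr52 as lower.

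Several transcripts of myelin-forming cells were lower, and Mbp did not pass. Of the oligodendrocyte list, 2 of 24 tested members were higher, 11 lower and 11 did not pass (median log2 fold change -0.35). Without replicate 1 at 22 months 3 were higher and 9 lower, with a median of -0.24. Without replicate 3 at 2 months 2 were higher and 15 lower, with a median of -0.48. Tspan2 (id70747, chromosome 3, 102734770 to 102772310), a tetraspanin of myelinating cells, had 1176, 1360.3 and 1269 normalised counts at 22 months, against 2525, 2486 and 2055 at 2 months. Every 22-month library was below every 2-month library (log2 fold change -0.89 ± 0.10, adjusted p = 1.53e-05). Ugt8a, the enzyme that makes the myelin lipid galactosylceramide, had 674, 862 and 806 normalised counts at 22 months, against 1598, 1483 and 1146 at 2 months (log2 fold change -0.84 ± 0.12, adjusted p = 7.71e-05). The connexin Gjc3 had 729, 807 and 699 normalised counts at 22 months, against 1182, 1221 and 984 at 2 months (log2 fold change -0.60 ± 0.09, adjusted p = 0.000113). Mbp, a main protein of myelin, had 31092, 43206 and 41031 normalised counts at 22 months, against 45057, 44689 and 34790.4 at 2 months and did not pass (log2 fold change -0.12 ± 0.14, adjusted p = 0.543). The list had 2 higher and 13 lower, median -0.45 with the trend removed. Summed over the list, the libraries held 82948, 105991 and 100761 normalised counts at 22 months and 131438, 130280.2 and 104081 at 2 months, so replicate 2 at 22 months exceeded replicate 3 at 2 months. The sums at 18 months were 109299, 141408 and 144274, so replicates 2 and 3 there exceeded every 2-month library. At 18 over 6 months the median log2 fold change was 0.14, and 6 of the 24 members kept their direction.

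Precursors of oligodendrocytes had Gpr17 as their leading gene. Of this list, 0 of 15 tested members were higher, 9 lower and 6 did not pass (median log2 fold change -0.35). Gpr17 (id574402, chromosome 18, 31942999 to 31949890), a receptor of precursors that are about to differentiate, had 250.3, 270.3 and 285 normalised counts at 22 months, against 765, 742 and 663 at 2 months, and its means at 6 and 18 months, 496 and 367, lay in between (log2 fold change -1.43 ± 0.08, adjusted p = 1.15e-08). Vcan, a matrix proteoglycan, had 473, 394 and 376 normalised counts at 22 months, against 748, 724 and 670.3 at 2 months (log2 fold change -0.79 ± 0.12, adjusted p = 0.000188). Ptprz1, a receptor phosphatase also made by astrocytes, had 2289, 2063 and 2176 normalised counts at 22 months, against 3102, 2976 and 2939.97 at 2 months (log2 fold change -0.47 ± 0.07, adjusted p = 9.38e-05). Pdgfra, the growth factor receptor that defines these cells, had 525, 464 and 434 normalised counts at 22 months, against 643, 632 and 579 at 2 months (log2 fold change -0.38 ± 0.09, adjusted p = 0.00288). The list had 0 higher and 4 lower, median -0.20 with the trend removed. Gpr17 and Vcan then passed (log2 fold changes -1.37 and -0.27), and Ptprz1 and Pdgfra, with -0.12 and -0.13, did not (adjusted p = 0.0688 and 0.238).

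Microglial transcripts were higher, with the homeostatic receptor Cx3cr1 as a member that did not pass. Of the microglia list, 16 of 25 tested members were higher, 1 lower and 8 did not pass (median log2 fold change 0.51). The counts without replicate 1 at 22 months were 12 higher and 1 lower, with a median of 0.36. With the length and GC trend removed as well, they were 8 higher and 1 lower, with a median of 0.28. Ctss, a lysosomal protease of microglia, had 1388, 1052 and 979 normalised counts at 22 months, against 539.6, 531 and 532 at 2 months (log2 fold change 1.07 ± 0.10, adjusted p = 3.8e-06). Trem2, the lipid-sensing receptor of microglia, had 245, 219 and 184 normalised counts at 22 months, against 103, 105 and 64.7 at 2 months (log2 fold change 1.26 ± 0.16, adjusted p = 4.08e-05). Laptm5, a lysosomal membrane protein of blood-derived lineages, had 1564, 1816 and 1477 normalised counts at 22 months, against 919, 960.1 and 958 at 2 months (log2 fold change 0.77 ± 0.09, adjusted p = 1.5e-05). All 3 genes were higher in each 22-month library than in any 2-month library. Cx3cr1, the fractalkine receptor, had 631, 567 and 610.03 normalised counts at 22 months, against 554, 566 and 559 at 2 months and did not pass (log2 fold change 0.11 ± 0.07, adjusted p = 0.271). Aif1, which encodes the microglial protein Iba1, had 58.7, 48.5 and 50.8 normalised counts at 22 months, against 27.3, 31.2 and 43.1 at 2 months and passed narrowly (log2 fold change 0.64 ± 0.21, adjusted p = 0.026), and it did not pass with the trend removed (adjusted p = 0.252) or without replicate 1 at 22 months (0.0792).

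Of the activated microglia list, 14 of 22 tested members were higher, 0 lower and 8 did not pass (median log2 fold change 0.63). Its largest rise, Lgals3bp, is also in the interferon-stimulated list and is described there. Clec7a (id56644, chromosome 6, 129461591 to 129472785), a lectin receptor that resting microglia hardly make, had 65.2, 47.01 and 42.5 normalised counts at 22 months, against 14.3, 8.25 and 8.62 at 2 months, with no overlap (log2 fold change 2.22 ± 0.30, adjusted p = 5.45e-05). Lyz2, the lysozyme of myeloid cells, had 220.3, 197 and 186 normalised counts at 22 months, against 68.9, 57.8 and 71.1 at 2 months (log2 fold change 1.60 ± 0.14, adjusted p = 1.75e-06), though the neighbouring Lyz1 ran from 0.07 below it to 0.06 above it on the log2 scale over all 12 libraries, so the reads of this pair may be shared. The cathepsins Ctsd and Ctsz had log2 fold changes of 0.64 ± 0.07 (adjusted p = 7.37e-06) and 0.82 ± 0.09 (1.12e-05). The microglia list had 11 higher and 1 lower, median 0.34 with the trend removed, and the activated list had 11 higher and 0 lower, median 0.43.

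Other immune cells left little signal. Of the border macrophage list, 0 of 7 tested members were higher and 1 lower, and 7 listed genes, among them Lyve1 and Pf4, were below the filter. The lower gene was Cd38, an ectoenzyme that other cells also make, with 14.3, 20.6 and 12.4 normalised counts at 22 months, against 32.1, 30.3 and 35.6 at 2 months (log2 fold change -1.03 ± 0.28, adjusted p = 0.00941). Stab1, a scavenger receptor, had 104, 167 and 126 normalised counts at 22 months, against 138, 138 and 128 at 2 months and did not pass (log2 fold change -0.05 ± 0.14, adjusted p = 0.814). Of 26 listed lymphocyte genes, 18 were below the filter, 2 were tested (Cd4 and Cd8b1) and 0 passed with limma (unadjusted p = 0.0677 for Cd4 and 0.853 for Cd8b1). Cd4 had 889, 984 and 906 normalised counts at 22 months, against 800, 868 and 823 at 2 months, and is not limited by depth. The T cell genes Cd3e, Cd3d and Cd3g were below the filter, and which cells made the Cd4 transcripts was not tested. For the 18 genes below the filter this depth cannot show a difference.

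Complement held the gene with the largest rise among the named genes. C3 (id12266, chromosome 17, 57203967 to 57228136), the central component of the cascade, had 471, 279 and 304 normalised counts at 22 months, against 28.5, 31.2 and 32.3 at 2 months, a mean that was 10.8-fold higher on the fitted scale (log2 fold change 3.44 ± 0.20, adjusted p = 2.53e-08). Its means at 6 and 18 months were 111 and 204. C4b, of the classical pathway, had 2173, 1672 and 1652 normalised counts at 22 months, against 582, 540.1 and 549 at 2 months (log2 fold change 1.71 ± 0.13, adjusted p = 4.17e-07), and the near-identical C4a ran 0.12 to 0.25 above it on the log2 scale in every library, so the reads of this pair may be split. C1qb, a chain of the recognition molecule that microglia make, had 772, 715 and 689 normalised counts at 22 months, against 359, 338 and 341 at 2 months (log2 fold change 1.06 ± 0.08, adjusted p = 3.59e-07). Of the complement list, 9 of 21 tested members were higher, 2 lower and 10 did not pass (median log2 fold change 0.49). After removal of the trend the list had 9 higher and 1 lower, median 0.40.

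The summed level of interferon-stimulated genes was above every 2-month library in all 3 libraries at 22 months, and far more so in replicate 1 than in the other two. Of this list, 35 of 55 tested members were higher, 0 lower and 20 did not pass (median log2 fold change 1.01). Summed over the list, the libraries held 16047, 6371 and 6946 normalised counts at 22 months and 5019, 4922 and 5415 at 2 months. Oasl2 (id23962, chromosome 5, 114896926 to 114912245), a protein related to the oligoadenylate synthetases, had 849, 119 and 77.7 normalised counts at 22 months, against 27.3, 21.1 and 25.9 at 2 months. Replicate 1 was far above replicates 2 and 3, and both other libraries were still above every 2-month library (log2 fold change 2.97 ± 0.59, adjusted p = 0.00119). Bst2, a membrane protein that tethers viruses, had 252, 57.3 and 69.4 normalised counts at 22 months, against 14.3, 18.3 and 15.1 at 2 months (log2 fold change 2.59 ± 0.43, adjusted p = 0.000272). Usp18, the protease that removes Isg15 from proteins, had 113, 16.2 and 29.00 normalised counts at 22 months, against 4.75, 3.67 and 8.62 at 2 months (log2 fold change 2.61 ± 0.53, adjusted p = 0.00136). Irf7, the transcription factor that amplifies the interferon response, had 246, 27.9 and 18.6 normalised counts at 22 months, against 3.56, 10.1 and 14.01 at 2 months, with replicate 1 at 2 months at the limit set by a count of 0 (log2 fold change 2.51 ± 0.67, adjusted p = 0.00799). Ifit1, which binds foreign RNA, had 283, 36.7 and 56.96 normalised counts at 22 months, against 11.9, 14.7 and 19.4 at 2 months (log2 fold change 2.41 ± 0.51, adjusted p = 0.0017).

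Ifit3 had 1396, 239 and 321 normalised counts at 22 months, against 119, 110.04 and 174 at 2 months (log2 fold change 1.85 ± 0.43, adjusted p = 0.00309), and the gap to its copy I830012O16Rik ran from -0.01 to 0.04 on the log2 scale over all libraries, so that reads of the pair may be shared. Lgals3bp, a secreted glycoprotein, had 959.5, 294 and 365 normalised counts at 22 months, against 102, 77.03 and 119.6 at 2 months (log2 fold change 2.25 ± 0.32, adjusted p = 0.000101). Ifitm3, a membrane protein that restricts virus entry, had 486, 206 and 254 normalised counts at 22 months, against 103, 105 and 101 at 2 months, among the smaller gaps between libraries at 22 months (log2 fold change 1.503 ± 0.21, adjusted p = 7.52e-05). Uba7, the enzyme that activates Isg15, had 263, 181 and 205 normalised counts at 22 months, against 125, 103 and 109 at 2 months (log2 fold change 0.93 ± 0.14, adjusted p = 0.00011). Ifi27l1 had 937, 379 and 371 normalised counts at 22 months, against 169.9, 152 and 168 at 2 months (log2 fold change 1.63 ± 0.24, adjusted p = 0.000129). The oligoadenylate synthetase Oas1g had 69.1, 8.81 and 12.4 normalised counts at 22 months, against 4.75, 0.917 and 6.47 at 2 months and passed (log2 fold change 2.27 ± 0.78, adjusted p = 0.0308), but not without replicate 1 at 22 months (adjusted p = 0.171) or with the trend removed (0.0613). Its replicate 2 at 2 months was under the limit set by a count of 0.

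Without replicate 1 at 22 months, 21 of the 55 interferon-stimulated genes were higher and 0 lower, with a median of 0.56, where 17.9% of all tested genes were higher. Oasl2, Bst2, Usp18, Ifit1, Irf7, Lgals3bp and Ifit3 then had log2 fold changes of 1.92, 1.93, 1.83, 1.54, 1.39, 1.73 and 1.07, and each passed (adjusted p at most 0.028, for Irf7). Leaving out replicate 1 at 2 months in its place gave 23 higher. All libraries with the trend removed gave 36 higher and 0 lower, median 1.07. With both the trend and replicate 1 removed, 18 were higher and 0 lower, with a median of 0.63. Nothing in the labels sets replicate 1 apart. At 18 months the sum over the list was also highest in replicate 1, with 8721 against 5973.5 and 7008. That library also had the lowest immediate early median of its age, -1.175 against -0.23 and -0.17. At 2 and 6 months the interferon-stimulated sum was highest in replicate 3. What makes replicate 1 at 22 months differ was not tested.

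**Figure D4:**
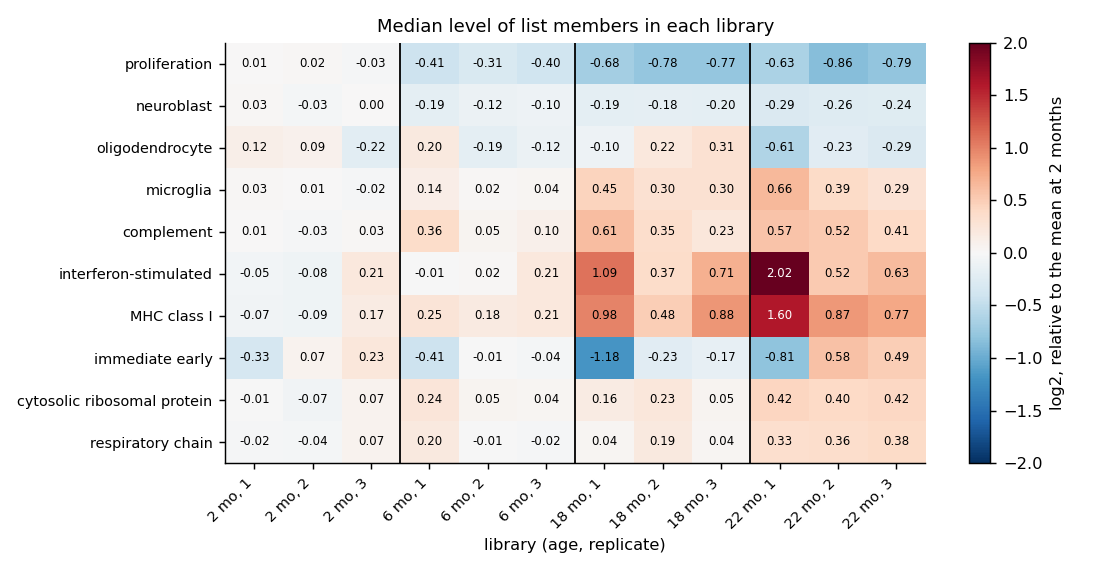
Median over list members of the log2 level relative to the mean at 2 months (colour and printed value), for 10 gene lists (rows) in each library by age in months and replicate number (columns). Interferon-stimulated genes reach 2.02 in replicate 1 at 22 months, against 0.52 and 0.63 in replicates 2 and 3, and immediate early genes reach -0.81 there, against 0.58 and 0.49.

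Most genes of the MHC class I list, which load and present peptides, were higher. Of this list, 16 of 20 tested members were higher, 0 lower and 4 did not pass (median log2 fold change 1.04). B2m (id12010, chromosome 2, 122147687 to 122153082), the shared light chain, had 1789.98, 736 and 796 normalised counts at 22 months, against 327, 315 and 399.8 at 2 months, and all 3 libraries at 22 months were above all 2-month libraries (log2 fold change 1.55 ± 0.24, adjusted p = 0.000148). Psmb8, a catalytic subunit of the immunoproteasome, had 138, 48.5 and 47.6 normalised counts at 22 months, against 10.7, 14.7 and 17.2 at 2 months (log2 fold change 2.22 ± 0.33, adjusted p = 0.00013). The heavy chain gene H2-D1 had 1519, 811 and 730.2 normalised counts at 22 months, against 272, 269.6 and 341 at 2 months (log2 fold change 1.72 ± 0.22, adjusted p = 4.42e-05). Another heavy chain gene, H2-T23, had 963, 432 and 379 normalised counts at 22 months, against 169.9, 154 and 161 at 2 months (log2 fold change 1.74 ± 0.23, adjusted p = 6.23e-05). H2-Q4 and H2-Q7 had log2 fold changes of 1.82 ± 0.23 and 1.74 ± 0.23, and these heavy chains are similar enough for reads to be split among them. Without replicate 1 at 22 months, 15 of the 20 genes were higher and 1 lower, with a median of 0.82, and with the trend removed the list had 15 higher and 0 lower, median 0.96. MHC class II was sparse. Of 6 tested members 1 was higher, the invariant chain Cd74, with 56.1, 32.3 and 11.4 normalised counts at 22 months, against 9.51, 6.42 and 4.31 at 2 months, where replicate 3 stood near the 2-month libraries (log2 fold change 1.94 ± 0.56, adjusted p = 0.0126). It did not pass without replicate 1 at 22 months (adjusted p = 0.0665).

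Among the chemokines and cytokines, 6 of 17 tested members were higher and 0 lower, and 16 listed genes, Il1b, Il6 and Tnf among them, were below the filter. The chemokine Cxcl14 had 508, 536 and 517 normalised counts at 22 months, against 367, 332 and 314 at 2 months (log2 fold change 0.63 ± 0.09, adjusted p = 9.35e-05). Cxcl12 had 422, 630.2 and 553 normalised counts at 22 months, against 319.7, 308 and 418 at 2 months (log2 fold change 0.61 ± 0.13, adjusted p = 0.0019). The alarmin Il33 had 871, 1014 and 894 normalised counts at 22 months, against 639, 698 and 547 at 2 months (log2 fold change 0.56 ± 0.10, adjusted p = 0.000566). Il34, a ligand of the microglial growth factor receptor, had 488, 467 and 483 normalised counts at 22 months, against 427, 403 and 394 at 2 months and passed (log2 fold change 0.23 ± 0.06, adjusted p = 0.00856), but its log2 fold change was -0.01 with the trend removed (adjusted p = 0.924). The list then had 4 higher and 1 lower, median 0.06.

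Promoter sequence was set beside the proliferation and interferon-stimulated lists. Windows of 300 bases, from 250 before to 50 after each RefSeq gene start on GRCm38.p6, were searched on both strands for TTTGAA (the core of the CHR element of cell cycle genes), for TTTGGCGC or TTTCGCGC (E2F sites) and for TTTCNNTTT (the core of the interferon-stimulated response element). Matches to different motifs may overlap. Of the 38 proliferation genes with a promoter in the table, 22 held the CHR core (57.9%) and 6 an E2F site (15.8%), against 14.5% and 1.7% of the 12267 tested genes with one. Of 40 interferon-stimulated genes, 29 held the ISRE core (72.5%), against 9.81% of the tested genes, and 12 held the CHR core (30%). A match describes the letters in the window and does not show a site in use.

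To show how these motifs sit before the genes, the 150 bases before the start of 2 genes of each group follow, 5′ to 3′ on the gene's strand, from the RefSeq table of GRCm38.p6. Capitals mark matches, to the ISRE core in Ifit1 and Bst2, and to the CHR core or an E2F site in Mki67 and Cdk1.
Ifit1 (chr19:34640739-34640888, plus strand): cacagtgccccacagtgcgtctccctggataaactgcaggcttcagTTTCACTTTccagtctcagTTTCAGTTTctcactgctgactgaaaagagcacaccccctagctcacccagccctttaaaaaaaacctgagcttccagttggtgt
Bst2 (chr8:71537473-71537622, minus strand): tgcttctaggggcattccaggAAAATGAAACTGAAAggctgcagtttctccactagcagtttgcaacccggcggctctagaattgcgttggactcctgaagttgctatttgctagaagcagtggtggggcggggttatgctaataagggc
Mki67 (chr7:135716380-135716529, minus strand): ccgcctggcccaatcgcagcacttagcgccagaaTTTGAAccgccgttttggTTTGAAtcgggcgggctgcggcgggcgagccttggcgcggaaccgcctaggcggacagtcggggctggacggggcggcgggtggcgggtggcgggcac
Cdk1 (chr10:69352913-69353062, minus strand): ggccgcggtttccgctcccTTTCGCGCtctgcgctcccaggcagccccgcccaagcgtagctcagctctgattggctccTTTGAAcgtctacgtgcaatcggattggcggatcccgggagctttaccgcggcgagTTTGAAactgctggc

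The table's start of Mki67 lies inside the gene bounds given above, so 71 of its 150 printed bases belong to the gene by those bounds. Ifit1 held 2 ISRE matches, which begin 104 and 85 bases before the start, and the 2 matches of Bst2 overlap, read on the opposite strand. Mki67 held 2 CHR matches, and Cdk1 held 2 CHR matches and 1 E2F site. Cdk1, the kinase that drives mitosis, is shown for its promoter and was chosen after its values were seen. It had 20.9, 10.3 and 11.4 normalised counts at 22 months, against 38.03, 29.3 and 43.1 at 2 months (log2 fold change -1.36 ± 0.28, adjusted p = 0.00128).

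Vessels and blood were set beside the glial lists. Of the endothelium list, 8 of 23 tested members were higher, 0 lower and 15 did not pass (median log2 fold change 0.24). Without replicate 1 at 2 months 4 were higher and 1 lower, with a median of 0.11. Plvap, a protein of fenestrated and leaky endothelium, had 79.5, 110.2 and 98.4 normalised counts at 22 months, against 54.7, 36.7 and 39.9 at 2 months (log2 fold change 1.13 ± 0.16, adjusted p = 9.98e-05). The TGF-beta co-receptor Eng had 205, 238 and 249 normalised counts at 22 months, against 97.5, 131 and 169 at 2 months (log2 fold change 0.82 ± 0.16, adjusted p = 0.000887). Cldn5, the tight junction protein of the blood-brain barrier, had 262, 294 and 261 normalised counts at 22 months, against 191, 249 and 162 at 2 months (log2 fold change 0.46 ± 0.14, adjusted p = 0.02), with a log2 fold change of 0.16 when the trend was removed (adjusted p = 0.465). The list then had 6 higher and 1 lower, median 0.16. Of the pericyte and smooth muscle list, 4 of 17 tested members were higher, 4 lower and 9 did not pass (median log2 fold change -0.05). That is 23.5% higher and 23.5% lower, against 18.4% and 17.2% of all tested genes. The number lower was 0 without replicate 2 at 2 months and 1 without replicate 1 at 2 months or replicate 3 at 22 months, and the number higher was 2 without replicate 2 at 22 months. Vtn had 0.62 ± 0.09 (adjusted p = 0.00012) and the longer Myh11 had -0.38 ± 0.10 (0.00722). The list had 1 higher and 2 lower, median -0.05 with the trend removed, and Myh11 did not pass (log2 fold change -0.21, adjusted p = 0.114).

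Of the collagen and fibroblast list, 1 of 23 tested members were higher, 4 lower and 18 did not pass (median log2 fold change -0.15). The lower share of 17.4% was near the 17.2% of all tested genes. The matrix protein Sparc had 2836, 2901 and 2978 normalised counts at 22 months, against 1978, 1930.3 and 2075 at 2 months (log2 fold change 0.54 ± 0.07, adjusted p = 7.31e-05), and Lama2 and Col4a1, with longest transcripts of 9614 and 6615 nt, had -0.57 ± 0.10 (adjusted p = 0.000667) and -0.43 ± 0.11 (0.00761). With the trend removed 1 gene was higher and 0 lower, and Lama2 and Col4a1 had log2 fold changes of -0.17 and -0.29. Col1a1 had 26.1, 11.8 and 26.9 normalised counts at 22 months, against 22.6, 19.3 and 15.1 at 2 months and did not pass (log2 fold change 0.11 ± 0.29, adjusted p = 0.801). The choroid plexus list had 1 higher gene of 15, Clic6 (log2 fold change 0.33 ± 0.11, adjusted p = 0.0248), and 0 with the trend removed. Ttr, the transthyretin of this tissue, had 1544, 569 and 1488 normalised counts at 22 months, against 1655, 942 and 1127 at 2 months, a spread wider within each age than between them (log2 fold change -0.14 ± 0.37, adjusted p = 0.795).

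Globin transcripts of red blood cells were higher. Of the erythroid list, 4 of 6 tested members were higher, 0 lower and 2 did not pass (median log2 fold change 1.00). Hba-a2 had 1379, 1857 and 1543 normalised counts at 22 months, against 568, 1051 and 696 at 2 months (log2 fold change 1.08 ± 0.17, adjusted p = 0.000209). Beta-s had 772, 852 and 811 normalised counts at 22 months, against 323, 509 and 380.4 at 2 months (log2 fold change 1.03 ± 0.15, adjusted p = 0.000107). The means of Hba-a2 at 6 and 18 months were 1409 and 1349.6, close to the 22-month libraries, so the 2-month libraries were the low ones. Globin copies share reads, and the amount of blood left in the dissected tissue was not measured. The list had 3 higher and 0 lower, median 0.71 with the trend removed.

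Markers of neurons differed by gene and by transcript length. Of the striatal projection neuron list, 11 of 23 tested members were higher, 1 lower and 11 did not pass (median log2 fold change 0.12). Tac1, the precursor of substance P, had 2299.7, 2429.8 and 2334 normalised counts at 22 months, against 1425, 1539.7 and 1703 at 2 months (log2 fold change 0.60 ± 0.09, adjusted p = 9.28e-05). The retinoid receptor Rxrg had 1491, 1617 and 1565 normalised counts at 22 months, against 1081, 1145 and 1097 at 2 months (log2 fold change 0.49 ± 0.06, adjusted p = 5.03e-05). Ppp1r1b, a dopamine-regulated phosphatase inhibitor, had 17346, 19024 and 18732 normalised counts at 22 months, against 13566, 14650.2 and 14661 at 2 months (log2 fold change 0.36 ± 0.06, adjusted p = 0.000483). The list had 10 higher and 1 lower, median 0.13 with the trend removed, and Ppp1r1b did not pass (adjusted p = 0.126). Only 5 of the 11 higher genes were higher in both fits. Of the cortical excitatory neuron list, 1 of 13 tested members were higher, 1 lower and 11 did not pass (median log2 fold change -0.12), with Nptx1, a neuronal pentraxin, as the higher gene (log2 fold change 0.68 ± 0.09, adjusted p = 5.56e-05) and the transcription factor Mef2c as the lower one (log2 fold change -0.18 ± 0.06, adjusted p = 0.0191). The log2 fold change of Mef2c was 0.10 with the trend removed (adjusted p = 0.212).

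Of the pan-neuronal list, 10 of 24 tested members were higher, 7 lower and 7 did not pass (median log2 fold change 0.08). Snap25, a protein of synaptic vesicle fusion, had 11535, 11478 and 11352 normalised counts at 22 months, against 8855, 9153 and 9279 at 2 months (log2 fold change 0.33 ± 0.05, adjusted p = 0.000117), and the neuronal enolase Eno2 had 0.30 ± 0.05 (adjusted p = 0.000178). Map2, a microtubule protein of dendrites, had 7796, 6915 and 6952 normalised counts at 22 months, against 10376, 10106 and 10295 at 2 months (log2 fold change -0.51 ± 0.07, adjusted p = 8.34e-05). Grin2b (id14812, chromosome 6, 135713221 to 136173615), the GluN2B subunit of glutamate receptors, had 160.4, 126 and 135 normalised counts at 22 months, against 658, 850.1 and 407 at 2 months, with the 2-month libraries widely spread and all above the 22-month ones (log2 fold change -2.12 ± 0.35, adjusted p = 0.00026). Its longest transcript has 24060 nt. After removal of the trend the list had 12 higher and 4 lower, median 0.13, and Grin2b still passed (log2 fold change -1.37).

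Grin2b belongs to a group of genes among the largest falls that have very long transcripts. Zbtb20, a zinc finger transcription factor, had 22.2, 44.1 and 35.2 normalised counts at 22 months, against 159, 210.00 and 77.6 at 2 months (log2 fold change -2.05 ± 0.47, adjusted p = 0.00314). The adhesion protein Igsf9b had 20.9, 52.9 and 47.6 normalised counts at 22 months, against 160.4, 179.7 and 123 at 2 months (log2 fold change -1.99 ± 0.31, adjusted p = 0.000164). The diacylglycerol kinase Dgkh had 79.5, 99.9 and 103 normalised counts at 22 months, against 358, 369.6 and 297 at 2 months (log2 fold change -1.85 ± 0.24, adjusted p = 4.41e-05). The longest transcripts of Zbtb20, Igsf9b and Dgkh have 26901, 16144 and 15257 nt. Their means at 6 and 18 months were 125 and 133 for Zbtb20, 151 and 138 for Igsf9b and 290.2 and 333 for Dgkh. The low means thus stood at 22 months, unlike those of Mki67 and Gpr17. Single libraries of other ages were low too. Zbtb20 had 42.8 in replicate 1 at 6 months, under the 44.1 of replicate 2 at 22 months. Each gene was lowest in replicate 1 at 6 months and in replicate 2 at 18 months. Those libraries had the smallest share of reads on genes over 6000 nt of their ages. With the trend removed the log2 fold changes of Zbtb20, Igsf9b and Dgkh were -1.23, -1.45 and -1.25, and each passed. Fewer transcripts and a loss of long RNA in the 22-month libraries cannot be told apart for these genes.

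3 further genes among the 12 largest falls, Dgkk, Kcng3 and Lcor, have longest transcripts of 7155, 3356 and 4833 nt. The diacylglycerol kinase Dgkk had 5.21, 8.81 and 3.11 normalised counts at 22 months, against 30.9, 20.2 and 51.7 at 2 months, with replicate 3 at 22 months at the limit set by a count of 0 (log2 fold change -2.38 ± 0.42, adjusted p = 0.000451). The potassium channel subunit Kcng3 had 6.52, 14.7 and 10.4 normalised counts at 22 months, against 57.05, 71.5 and 29.1 at 2 months (log2 fold change -2.19 ± 0.43, adjusted p = 0.00105). The transcriptional corepressor Lcor had 20.9, 19.1 and 18.6 normalised counts at 22 months, against 92.7, 116 and 62.5 at 2 months (log2 fold change -2.11 ± 0.29, adjusted p = 7.65e-05). Their 2-month libraries varied widely within the age and did not overlap with the 22-month ones. At 6 and 18 months the means were 20.7 and 23.2 for Dgkk, 50.3 and 49.9 for Kcng3 and 65.5 and 70.98 for Lcor. Low values at 22 months thus also stood at genes with shorter annotated transcripts. Within each other age, Kcng3 and Lcor were lowest in the library with the smallest share of reads on genes over 6000 nt. These were replicate 3 at 2 months, replicate 1 at 6 months and replicate 2 at 18 months, where Grin2b was lowest too. Dgkk was instead highest in that library at 2 and 6 months and lowest at 18. Whether these falls are separate from the shift in transcript length was not tested. Among the 12 largest rises were also Cyp2a5 and Cyp2a4, near-identical cytochrome P450 genes, with 29.98, 27.9 and 38.3 normalised counts at 22 months for Cyp2a5, against 2.38, 3.67 and 8.62 at 2 months (log2 fold change 2.62 ± 0.34, adjusted p = 5.12e-05). For both genes replicate 1 at 2 months was under the limit set by a count of 0. The gap of the pair ran from -0.08 to 0.08 on the log2 scale, so reads may be shared.

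Genes of signalling pathways of the niche were looked at as lists. Of the BMP and TGF-beta list, 12 of 35 tested members were higher, 4 lower and 19 did not pass (median log2 fold change 0.12). The ligand Bmp7 (id12162, chromosome 2, 172868012 to 172940321) had 154, 166 and 151 normalised counts at 22 months, against 73.7, 52.3 and 65.7 at 2 months (log2 fold change 1.297 ± 0.14, adjusted p = 8.15e-06). Bmp6 had 183, 226 and 204 normalised counts at 22 months, against 131, 120.1 and 73.3 at 2 months (log2 fold change 0.95 ± 0.17, adjusted p = 0.000421). The receptor Tgfbr2 had 322, 333 and 346 normalised counts at 22 months, against 221, 227 and 217 at 2 months (log2 fold change 0.59 ± 0.08, adjusted p = 8.47e-05). Bmpr2, the type II BMP receptor, had 1605, 1375 and 1417 normalised counts at 22 months, against 1913, 1917 and 1874 at 2 months and was lower (log2 fold change -0.38 ± 0.07, adjusted p = 0.000556). Removal of the length and GC trend made it higher (log2 fold change 0.19, adjusted p = 0.0153), so its direction rests on that choice. Its longest transcript has 12899 nt. The list had 11 higher and 1 lower, median 0.19 with the trend removed, and the number lower was 2 without replicate 2 at 22 months or replicate 1 or 3 at 2 months.

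Of the WNT list, 6 of 34 tested members were higher, 3 lower and 25 did not pass (median log2 fold change 0.12), so the higher share of 17.6% was near the 18.4% of all tested genes. Its median was 0.06 without replicate 1 at 22 months and 0.04 without replicate 1 at 2 months. The secreted modulator Dkk3 had 1927, 1748 and 1778 normalised counts at 22 months, against 1238, 1211 and 1245 at 2 months (log2 fold change 0.56 ± 0.06, adjusted p = 1.15e-05). Sfrp5, a secreted antagonist, had 82.1, 64.6 and 63.2 normalised counts at 22 months, against 38.03, 27.5 and 23.7 at 2 months (log2 fold change 1.22 ± 0.21, adjusted p = 0.000332). The ligand Wnt7b had 236, 256 and 278 normalised counts at 22 months, against 154, 161 and 167 at 2 months (log2 fold change 0.67 ± 0.11, adjusted p = 0.000227). The receptor Fzd3 was lower (log2 fold change -0.48 ± 0.07, adjusted p = 7.89e-05), with a log2 fold change of 0.09 when the trend was removed (adjusted p = 0.266), so its direction rests on that choice too. The list then had 6 higher and 0 lower, median 0.12. Of the Notch and Hedgehog list, 6 of 32 tested members were higher, 5 lower and 21 did not pass (median log2 fold change -0.002), shares of 18.8% and 15.6% against 18.4% and 17.2% of all tested genes. The number higher was 3, 3 and 2 without replicate 1, 2 or 3 at 2 months. The receptors Notch1 and Notch2 had -0.46 ± 0.09 (adjusted p = 0.00113) and -0.47 ± 0.10 (0.00213), and -0.16 and -0.12 with the trend removed, where neither passed. Hhip, which binds Hedgehog ligands, had 142, 122 and 121 normalised counts at 22 months, against 238, 235 and 184 at 2 months (log2 fold change -0.76 ± 0.11, adjusted p = 0.000131). With the trend removed that list had 2 higher and 2 lower, median 0.08. Of the growth factor list, 6 of 32 tested members were higher, 2 lower and 24 did not pass (median log2 fold change -0.03), so that 18.8% were higher, near the share of all tested genes. The number higher was 3 without replicate 2 or 3 at 22 months and 2 without replicate 1 at 2 months. Vegfa (log2 fold change 0.26 ± 0.06, adjusted p = 0.00457) and Vegfb (log2 fold change 0.51 ± 0.08, adjusted p = 0.000126) were among the higher genes. With the trend removed the list had 3 higher and 2 lower, median -0.02, and Vegfb no longer passed (log2 fold change 0.19, adjusted p = 0.0581).

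Of the cholesterol synthesis list, 1 of 23 tested members were higher, 8 lower and 14 did not pass (median log2 fold change -0.06). Hmgcs1 (id208715, chromosome 13, 119690351 to 119708260), which makes the HMG-CoA that the rate-limiting reductase consumes, had 1232, 1272 and 1312 normalised counts at 22 months, against 2013, 2008 and 1948 at 2 months, with tight values at each age (log2 fold change -0.65 ± 0.05, adjusted p = 1.09e-06). Idi1, the isomerase of the isoprenoid steps, had 326, 347 and 347 normalised counts at 22 months, against 545, 567 and 518 at 2 months (log2 fold change -0.68 ± 0.07, adjusted p = 9.32e-06). Cyp51, the lanosterol demethylase, had 368, 408 and 457 normalised counts at 22 months, against 607, 572 and 588 at 2 months (log2 fold change -0.52 ± 0.08, adjusted p = 0.000164). Sc5d, a sterol desaturase of the last steps, had 351, 336 and 341 normalised counts at 22 months, against 447, 414 and 431 at 2 months (log2 fold change -0.33 ± 0.07, adjusted p = 0.00136). The list had 0 higher and 7 lower, median -0.18 with the trend removed.

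Transcripts of cytosolic ribosomal proteins and of the respiratory chain were higher almost throughout. Both lists hold genes with short transcripts, with median longest transcripts of 1076.5 and 1025.5 nt. Of the ribosomal list, 74 of 76 tested members were higher, 0 lower and 2 did not pass (median log2 fold change 0.40), and of the respiratory chain list, 64 of 68 tested members were higher, 0 lower and 4 did not pass (median log2 fold change 0.37). Rplp1, of the ribosomal stalk, had 3766, 3849 and 3753 normalised counts at 22 months, against 2358, 2312 and 2518 at 2 months (log2 fold change 0.66 ± 0.06, adjusted p = 2.87e-06). Sdhb, the iron-sulfur subunit of complex II, had 969.95, 1033 and 1007 normalised counts at 22 months, against 679.8, 693 and 743 at 2 months (log2 fold change 0.51 ± 0.06, adjusted p = 1.6e-05). After removal of the length and GC trend, 37 of the 76 ribosomal genes were higher and 0 lower, with a median of 0.17, and 16 of the 68 respiratory genes were higher and 0 lower, with a median of 0.12. Rplp1 and Sdhb then had 0.30 and 0.22 (adjusted p = 0.000876 and 0.00915).

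Transcripts of metallothioneins and antioxidant enzymes were mostly higher. Of this list, 17 of 28 tested members were higher, 1 lower and 10 did not pass (median log2 fold change 0.33). The brain metallothionein Mt3 had 1659.6, 1804 and 1804 normalised counts at 22 months, against 1129, 1048 and 1119.7 at 2 months (log2 fold change 0.68 ± 0.06, adjusted p = 3.72e-06). Mt1, the widely expressed metallothionein, had 1729, 2054 and 1883 normalised counts at 22 months, against 1202, 1215 and 1180.1 at 2 months (log2 fold change 0.65 ± 0.07, adjusted p = 9.35e-06). The glutathione transferase Gstm1 had 2164, 2694 and 2678 normalised counts at 22 months, against 1513, 1600.2 and 1536 at 2 months (log2 fold change 0.69 ± 0.07, adjusted p = 5.56e-06). The list had 12 higher and 1 lower, median 0.16 with the trend removed. Of the lysosome list, which shares members such as Ctsd, Ctss and Laptm5 with the microglial lists, 20 of 33 tested members were higher, 0 lower and 13 did not pass (median log2 fold change 0.26), and it had 17 higher and 1 lower, median 0.23 with the trend removed. In both fits 14 of the 20 were higher.

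Clustered protocadherins, cell surface proteins that give neurons their identity, split by gene. Of the list, 17 of 56 tested members were higher, 5 lower and 34 did not pass (median log2 fold change 0.09). Pcdhga8 had 561, 567 and 589 normalised counts at 22 months, against 462, 442 and 383 at 2 months (log2 fold change 0.42 ± 0.08, adjusted p = 0.000672). Pcdhb8 had 375, 479 and 374 normalised counts at 22 months, against 295, 283 and 233 at 2 months (log2 fold change 0.59 ± 0.12, adjusted p = 0.00105). Pcdhgc5 had 632, 723 and 764 normalised counts at 22 months, against 964, 964 and 934 at 2 months (log2 fold change -0.44 ± 0.07, adjusted p = 0.000359). Transcripts share their 3′ exons within the alpha cluster and within the gamma cluster of Pcdhga8 and Pcdhgc5. Reads on those exons cannot be assigned to 1 gene. This limit does not cover the beta cluster of Pcdhb8. The list had 20 higher and 1 lower, median 0.12 with the trend removed, and the number lower ran from 1, without replicate 1 at 2 months, to 6, without replicate 3 at 2 months, over the fits without 1 library.

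Immediate early genes, whose transcription answers quickly to neuronal firing or tissue handling, varied widely between the libraries of 1 age. Of the list, 4 of 27 tested members were higher, 2 lower and 21 did not pass (median log2 fold change 0.09). That is 14.8% higher and 7.41% lower, against 18.4% and 17.2% of all tested genes. Summed over the list, the libraries held 8364, 21513 and 22867 normalised counts at 22 months and 14119, 19719.5 and 22405 at 2 months. Arc, an activity-regulated synaptic protein chosen after its values were seen, had 465, 3205 and 3394 normalised counts at 22 months, against 1648, 2547 and 3368 at 2 months (log2 fold change -0.49 ± 0.60, adjusted p = 0.557), with replicate 1 the lowest library of either age. Nr4a3 had 26.1, 45.5 and 116 normalised counts at 22 months, against 140.2, 151 and 176 at 2 months (log2 fold change -1.56 ± 0.35, adjusted p = 0.00281). Ier3 had 59.97, 79.3 and 75.6 normalised counts at 22 months, against 24.96, 50.4 and 26.9 at 2 months (log2 fold change 1.11 ± 0.22, adjusted p = 0.0011). Jund had 883, 1100.3 and 1158 normalised counts at 22 months, against 713, 787 and 707 at 2 months (log2 fold change 0.50 ± 0.09, adjusted p = 0.000382). Without replicate 1 at 22 months the list had 10 higher genes and 1 lower one, with a median of 0.62 in place of 0.09. Without replicate 2 or 3 at 22 months it had 2 higher genes, with medians of -0.26 and -0.07. Replicate 1 also had the lowest sum over the list at 2, 6 and 18 months. Leaving out replicate 1 at 2 months gave 3 higher and 3 lower genes, with a median of -0.19. With the trend removed and all libraries kept, the list had 3 higher and 1 lower, median 0.03.

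Of the heat shock list, 3 of 23 tested members were higher, 4 lower and 16 did not pass (median log2 fold change 0.08), with Hspa8, the constitutive chaperone, higher (log2 fold change 0.26 ± 0.07, adjusted p = 0.00616) and the cochaperone Chordc1 lower (log2 fold change -0.39 ± 0.07, adjusted p = 0.00069). The list was thus 13% higher and 17.4% lower, against 18.4% and 17.2% of all tested genes. After removal of the trend the list had 4 higher and 0 lower, median 0.10, and Chordc1 had -0.06. The number lower was 1 without replicate 2 at 22 months or replicate 2 at 2 months and 2 without replicate 1 at 2 months, and the number higher was 6 without replicate 1 at 22 months. The cold-inducible RNA-binding protein Cirbp had 699, 764 and 715 normalised counts at 22 months, against 480.1, 498 and 531 at 2 months (log2 fold change 0.53 ± 0.07, adjusted p = 5e-05). Of the cell cycle inhibitor and senescence list, 4 of 20 tested members were higher, 4 lower and 12 did not pass (median log2 fold change 0.09). Shares of 20% higher and 20% lower lay near the 18.4% and 17.2% of all tested genes. Cdkn1b, an inhibitor of cyclin-dependent kinases, had 485, 507 and 530.3 normalised counts at 22 months, against 638, 718 and 709 at 2 months (log2 fold change -0.44 ± 0.07, adjusted p = 0.000291). Cdkn2d, an inhibitor of the INK4 family, had 364, 383 and 399 normalised counts at 22 months, against 292, 242 and 265 at 2 months (log2 fold change 0.52 ± 0.09, adjusted p = 0.000329). Cdkn2a, an inhibitor used as a senescence marker, had 2.61, 0 and 0 normalised counts at 22 months and 0, 0.917 and 1.08 at 2 months, under the limit set by a count of 0, where this depth cannot show a difference. The list had 2 higher and 4 lower, median -0.03 with the trend removed.

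Slc4a11, a transporter related to bicarbonate carriers, stood out by its time course. It had 163, 142 and 178 normalised counts at 22 months, against 54.7, 51.4 and 58.2 at 2 months (log2 fold change 1.54 ± 0.11, adjusted p = 3.59e-07), and its means at 6 and 18 months, 167 and 181, were already at the 22-month level.

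The libraries at 6 and 18 months are in neither group compared, though they share the fit and its filter on low values, and were used to ask how the genes stood there. At 18 against 6 months, 24 genes passed (0.153% of 15663), and 21 of them also passed at 22 against 2 months in the same direction, which is 87.5% of the 24 and 0.376% of the 5584. The 10 higher ones were Bmp7, C4a, C4b, Cirbp, Clec7a, Ctss, Gfap, Lyz1, Lyz2 and Zc3hav1. The 11 lower ones were Ccnd2, Dlx1as, Dok3, Gpr17, Hmgb2, Lmnb1, Marcksl1, Marcksl1-ps4, Mex3a, Rhbdl3 and Zmym1. Those of the 21 that the rule for named genes did not take were chosen after their values were seen. Of the genes that were higher at 22 months, 62.8% had a positive fold change at 18 over 6 months (median log2 fold change 0.03), and of those that were lower, 41.1% did (median -0.03), against 50.1% of all tested genes.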

How the data were processed

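Total RNA of dissociated subventricular zone cells was sequenced, with 3 libraries at each of 2, 6, 18 and 22 months. The authors deposited 1 table of signal values, which are read counts per gene after scaling by library size factors. Whole reads were recovered from them, since 100% of the values of each library were whole multiples of its value of 1 read, at a relative tolerance of 1e-06. DESeq2 and the mouse build mm10 are named per the submitters' processing notes, and the aligner, counting tool, annotation and strandedness are not given in the sources used here. Of 23725 genes, 456 had no symbol, 27 had a symbol turned into a date, 23666 matched RefSeq on GRCm38.p6, and 2277 had no read. Positions are RefSeq gene bounds. Length and GC content are those of the longest GENCODE M21 transcript, known for 14853 tested genes (94.8%), and the transcript that was expressed may be shorter.

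Genes that reached 10 normalised counts in 3 or more libraries entered the test, on log2 of the normalised count plus a pseudocount of 1 with limma 3.58.1 in R 4.3.3 (empirical Bayes with a trend over intensity and 8.96 prior degrees of freedom), all 12 libraries in 1 fit, Benjamini-Hochberg over the 15663 genes, two-sided. A fold change on this scale understates the change of low genes. The replicate numbers were not used to pair the samples in the main fit. Lists are described by counts and medians without a set test. DESeq2 1.42.0 and edgeR 4.0.16 on the recovered reads, other scalings, filters, pseudocounts, leaving out each library and removal of a spline trend (5 degrees of freedom) over length and GC content were alternatives. Limits set by 3 reads cover counting error only.

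The genes named are the 12 largest rises and 12 largest falls among passing genes without overlap and with a mean of at least 30 at the higher age, at most 4 members per list (those of smallest p), and a panel of 27 genes, though some of these are not reported here. The members, lists and tests were chosen with earlier results of these data known.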

Additional observations from a re-analysis of the deposited data

How the results depend on the processing

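Of 15663 genes, 5584 passed at 22 against 2 months, and 21 of them also passed at 18 against 6 months. Over the fits that left out 1 library each, 4172 to 5329 genes passed (2115 to 2805 higher and 2057 to 2524 lower), and 14 to 51 passed at both, the last without 22 months replicate 1. With the length and GC trend removed 3497 passed, 1943 higher and 1554 lower. With that and a replicate block 3310 passed (1821 higher, 1489 lower), and with that and without 22 months replicate 1, 2854 passed (1553 higher, 1301 lower) and 63 passed at both; this pair of fits was chosen after seeing the data. With at least a 1.5-fold change 1364 passed (590 higher, 774 lower) and 12 at both. The count at both was 11 without a filter on low values, 3 without an intensity trend, 46 with DESeq2 and 32 with edgeR. DESeq2 called 4429 genes and edgeR 5238, and 4379 and 5157 of these were also called by limma. Over all tested genes, deviations of same-numbered libraries at 22 and 2 months correlated at -0.04, 0.03 and -0.04. The replicate block gave 5245 passing genes and 17 at both. The sum over the immediate early list was nevertheless lowest in replicate 1 at every age, so a shared effect of replicate number on some genes is not excluded.

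Of 174 named genes, 4 turned with the length and GC trend removed, with the block added, and with 22 months replicate 1 left out too: Il34 to -0.0115, -0.0115 and -0.059, Mef2c to 0.0965, 0.0965 and 0.0929, Fzd3 to 0.0941, 0.0941 and 0.079, and Bmpr2 to 0.189, 0.189 and 0.152 on the log2 scale. With that trend removed 23 more of the 156 passing named genes no longer passed, and the cause was not tested. Depth limits genes under 10 normalised counts, such as Cdkn2a and Cd3e.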
